A study of Schizosaccharomyces pombe with 6 samples.

Results

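The rRNA processing genes of *Schizosaccharomyces pombe* (fission yeast) were examined in RNA-seq of cells whose histone H2B lacks the lysine that receives ubiquitin. The 161 members are the rows of the deposited gene table whose Gene Ontology process annotation holds the term rRNA processing, out of 5184 rows in all. Of 176 such rows, 15 were left out, namely 8 with ribosomal protein symbols, 6 with *lsm* symbols, and 1 with a *prp* symbol. The rule reads the annotation and no expression values, but it was chosen with earlier results of these data known. The 6 libraries came from 3 biological repeats of WT and 3 of *htb1-K119R*. In *htb1-K119R*, the lysine of H2B that receives ubiquitin is replaced by arginine in the only H2B gene of this yeast. The study's strain list gives WT as TK8 (h+ *ade6-M216 leu1-32 ura4-D18*) and the mutant as YGF226 (h- *ura4-D18 htb1-K119R::kanMX6*). Both thus lack *ura4*, but they also differ in mating type, in the *ade6* and *leu1* alleles, and in the drug marker, which cannot be told apart from the H2B substitution here. Each genotype is represented by 1 strain, and the growth conditions of the RNA-seq cultures are not given in the sources used here.

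Eukaryotic ribosomes are built in the nucleolus, where RNA polymerase I transcribes a long precursor rRNA. The small-subunit processome, a large assembly around the U3 small nucleolar RNA, folds and cuts the part that becomes 18S rRNA, while other factors prepare the large subunit. Box C/D and box H/ACA snoRNPs methylate and pseudouridylate the precursor, RNA helicases remodel it, and nucleases, among them the exosome, trim its ends and degrade the spacers. Monoubiquitylated H2B is a mark of transcribed chromatin, deposited in fission yeast by the Rhp6 and Brl ubiquitin ligase machinery during elongation by RNA polymerase II. The libraries were oligo(dT)-selected, so they report the mRNAs of the processing factors and not the rRNA. As bulk samples they cannot tell fewer cells that express a gene from less RNA per cell.

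The libraries held between 15987167 and 20701391 counts. Counts were scaled by TMM, which normalizes on genes that are not extreme, to counts relative to library size (CPM). WT replicates 1 and 2 had the lowest TMM factors (0.824 and 0.863, against 1.01 to 1.17 in the other libraries), and WT replicate 3 stood apart from the other WT libraries. The targeted gene *htb1* was counted between 24421 and 32936 times in the WT libraries and between 25253 and 28635 times in those of *htb1-K119R*. A point substitution does not have to change the count, so these values do not check the labels, and *ura4* had a count of 0 in all 6 libraries, as both genotypes carry the deletion. Differential expression was tested over 4969 genes of sufficient count by the quasi-likelihood F test of edgeR, with the false discovery rate (FDR) after Benjamini and Hochberg. Genes past the test (FDR below 0.05) are called higher or lower, and those that also changed by over 2-fold, as the study required of DEGs, are called upregulated or downregulated.

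Most rRNA processing genes did not pass the test, and those that did went both ways. Of the 161 members, 160 were tested. At an FDR below 0.05, 37 members (23.1%) were higher in *htb1-K119R* and 21 (13.1%) were lower, against 18.6% and 19.3% of all genes tested. The changes of more than 2-fold were nearly all increases. There were 17 upregulated members (10.6%, against 4.71% of all genes tested) and 1 downregulated member (0.625%, against 3.64%). The median log2 fold change of the members was 0.02, and that of all genes tested was −0.01. The quartiles of the members were −0.29 and 0.46, and those of all genes tested were −0.36 and 0.33. The 3 *htb1-K119R* libraries all lay above the 3 WT libraries in 44 members (27.5%, against 25% of all genes tested) and all below in 33 (20.6%, against 23.9%). These 2 shares lay near the background.

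The count of lower members depended on the scaling. With library totals in place of TMM, 26 members were higher (16.4% of all genes tested were) and 1 was lower (8.11%), and the median of all genes tested moved to 0.15, a shift of 0.16. The share of higher members among those called was 63.8% under TMM and 96.3% under library totals. The upregulated members numbered 17 and 19 under these settings, of which 16 were shared, and none was downregulated under library totals (6% and 2.17% of all genes tested). The count of lower members, 21 in all libraries, was 32 without WT replicate 3 (27.6% of all genes), 10 without *htb1-K119R* replicate 3 (11.4%), 13 without *htb1-K119R* replicate 1 (12%), and 13 without WT replicate 2 (12.7%), so each of these libraries moved it by over 1.5 times, and the share of all genes moved in the same direction. Without WT replicate 3, 48 members were higher (26.4% of all genes), 22 were upregulated (5.84%), and none was downregulated (4.29%).

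**Figure D1:**
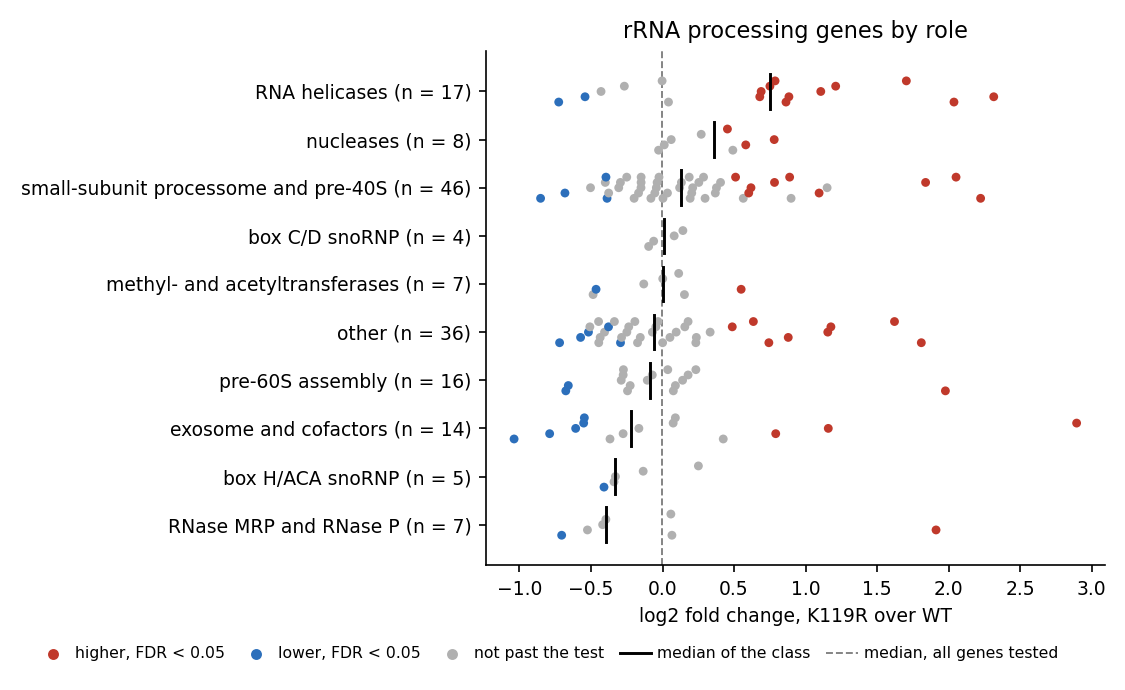
Log2 fold change (*htb1-K119R* over WT) of the 160 members tested, by role. Each point is a gene, colored where its FDR in edgeR was below 0.05, the black bar is the median of the class, and the dashed line is the median of all genes tested (−0.01). Most red points past 1 belong to the helicases (5 genes), the processome (4), and the class of other factors (4), and the only blue point past −1 is *csl4*.

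By role, the counts are read against 18.6% higher and 19.3% lower of all genes tested, and differences between the classes were not tested. Of 17 RNA helicases, 11 were higher (64.7%) and 2 were lower (median log2 fold change 0.75). Of 46 genes of the small-subunit processome and pre-40S particles, 9 were higher (19.6%, near the background) and 4 were lower (8.70%, median 0.13). This median was −0.04 with gene length and GC content corrected, −0.01 without WT replicate 1, and 0.25 without WT replicate 3. Of 14 exosome genes and cofactors, 3 were higher and 5 were lower (median −0.22). Among 8 further nucleases, 3 were higher and none was lower (median 0.36), and among 16 pre-60S assembly genes 1 was higher and 2 were lower (median −0.09). The 7 genes of RNase MRP and RNase P had 1 in each direction (median −0.40), as had the 7 methyl- and acetyltransferases (median 0.00). None of the 4 box C/D snoRNP proteins passed the test, and 1 of the 5 box H/ACA genes was lower. Without WT replicate 3, 1 box C/D gene was higher and 1 lower, and 1 box H/ACA gene was higher and 3 were lower. In that fit 26.4% of all genes tested were higher and 27.6% lower. The remaining 36 members, of mixed function, had 8 higher and 5 lower (median −0.06). The classes came from the deposited descriptions, and a gene was placed in the first class that fitted. After the correction for GC content and gene length, the medians of the nucleases, of RNase MRP and RNase P, and of the box H/ACA genes were 0.17, −0.11, and −0.07, against 0.36, −0.40, and −0.33 without it.

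*rrp6* had the largest increase of all members. It encodes the nuclear exoribonuclease that works with the exosome and trims the ends of rRNA and snoRNA precursors. *rrp6* (SPAC1F3.01, chromosome I, 610848 to 613338, plus strand, 2 exons, in ASM294v3) was counted 13, 12, and 26 times in WT and 135, 133, and 165 times in *htb1-K119R*. Every mutant library thus held far more reads than any WT library. In CPM the WT libraries were at 0.99, 0.86, and 1.07 and the mutant libraries at 6.35, 7.30, and 8.52. The means were 0.974 ± 0.107 and 7.39 ± 1.09 CPM (SD, n = 3), and the groups did not overlap. The log2 fold change was 2.90 (SE 0.232, FDR of 1.14e-05 in edgeR), and it stayed between 2.78 and 2.997 in the fits that left out 1 library. An exact permutation test of 3 against 3 libraries cannot give a two-sided *P* below 0.1, here or for any other gene.

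The other nuclear exosome factors that rose were *mtl1* and *dis3*. *mtl1* encodes a helicase related to Mtr4, which feeds RNA to the exosome. Its CPM was 3.04, 3.16, and 2.89 in WT and 6.02, 7.91, and 6.35 in the mutant (log2 fold change 1.16, FDR of 0.00113 in edgeR). *dis3* encodes the catalytic exosome subunit, and its CPM was 21.4, 23.5, and 40.2 in WT and 54.1, 43.8, and 50.9 in the mutant. Its groups did not overlap, but WT replicate 3 lay nearer to the mutant libraries than to the other WT libraries. The log2 fold change of *dis3* was 0.79 (SE 0.209, FDR of 0.0135 in edgeR). *mtr4*, the helicase of the TRAMP complex that tags nuclear RNA for decay, had 7.67, 9.26, and 9.79 CPM in WT and 12.6, 13.1, and 10.3 CPM in the mutant. Its log2 fold change of 0.42 (FDR of 0.0586 in edgeR) did not pass.

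Of the subunits that form the exosome barrel, 5 of 9 went the other way. The barrel consists of a ring of 6 proteins (Rrp41, Rrp42, Rrp43, Rrp45, Rrp46, and Mtr3) under a cap of 3 RNA-binding proteins (Csl4, Rrp4, and Rrp40). All 3 cap genes and 2 of the ring genes were lower, or 55.6% of the 9, against 19.3% of all genes tested. None of the 9 was higher, and their median log2 fold change was −0.55. In the fits that left out 1 library, the number lower ranged from 3 to 5. It was 3 without *htb1-K119R* replicate 3 (11.4% of all genes tested were lower) and 5 without WT replicate 3 (27.6%). With GC content and gene length corrected, this median was −0.33. Over all genes tested, 30.5% of those below 1200 bases and 20.9% of those between 1200 and 2000 bases were lower. *csl4* (SPCC1840.11, chromosome III, 2279268 to 2280286, plus strand, 1 exon), the only member down by more than 2-fold, had 8.12, 8.3996, and 11.8 CPM in WT and 4.65, 4.23, and 5.01 CPM in *htb1-K119R*. Its groups did not overlap, and its log2 fold change was −1.04 (SE 0.193, FDR of 0.00215 in edgeR). It still passed the test in each of the 6 fits that left out a library, while its log2 fold change ranged from −1.14 to −0.83, so the 2-fold call was lost without WT replicate 3 or *htb1-K119R* replicate 2.

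*rrp4* had 6.22, 6.75, and 9.91 CPM in WT and 4.94, 3.95, and 4.49 CPM in the mutant, a log2 fold change of −0.79 (FDR of 0.0157 in edgeR). *rrp40*, the last cap gene, had 14.0, 18.5, and 17.2 CPM in WT and 10.999, 11.04, and 10.69 CPM in the mutant (log2 fold change −0.61). The cap genes thus separated the genotypes in all libraries. In the ring, *rrp46* had 21.2, 25.8, and 23.9 CPM against 16.4, 14.5, and 17.7 CPM (log2 fold change −0.55), with no overlap. *rrp43* had 77.1, 66.7, and 48.8 CPM against 42.5, 49.9, and 38.6 CPM (log2 fold change −0.55), and WT replicate 3 lay within the range of the mutant libraries. Of the 6 fits that left out a library, *rrp4* passed in 4, *rrp43* in 2, and *rrp40* and *rrp46* in all 6. *rrp40*, *rrp43*, and *rrp46* were picked once the values were known. The other 4 ring genes did not pass, with log2 fold changes of 0.09 for *rrp41*, 0.07 for *rrp42*, −0.17 for *mtr3*, and −0.27 for *rrp45*.

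The 5 barrel genes kept their direction under library totals but lost their calls. With library totals their median was −0.36 and none of the 9 passed, with these 5 genes between −0.91 and −0.36. The signs of *rrp6* (3.04) and *csl4* (−0.91) remained opposite under library totals. The difference between the nuclease and barrel genes was not tested.

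**Figure D2:**
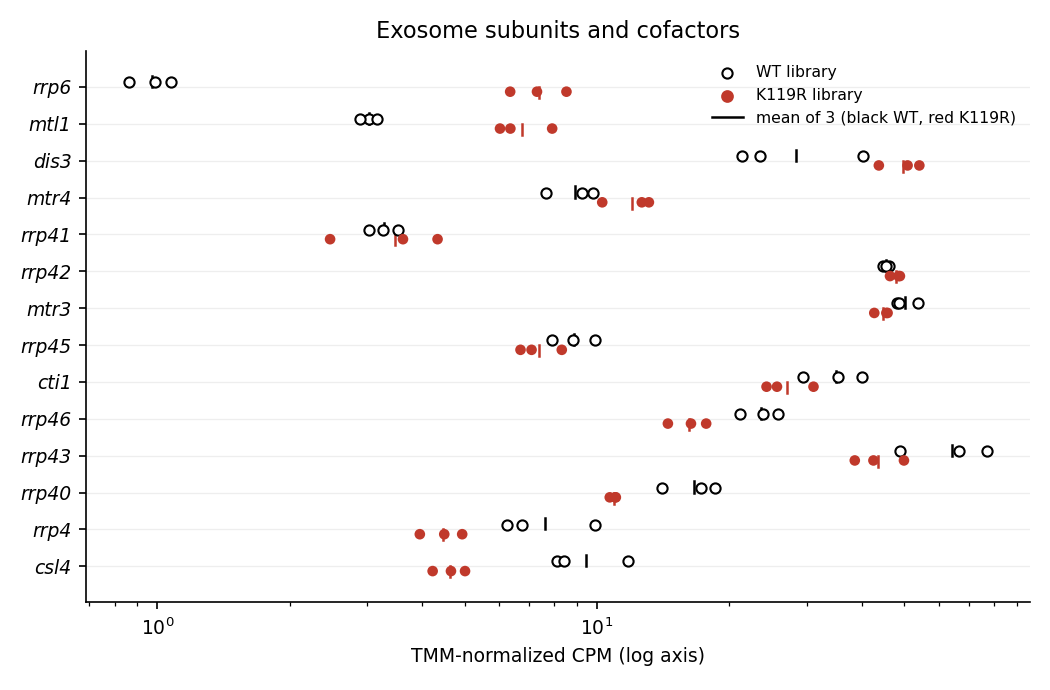
TMM-normalized CPM (log axis) of the 14 exosome genes and cofactors in each of the 3 WT (open circles) and 3 *htb1-K119R* libraries (red), with the mean of each genotype as a vertical tick. *rrp6* lay between 0.86 and 1.07 CPM in WT and between 6.35 and 8.52 CPM in *htb1-K119R*, whereas *csl4*, *rrp4*, *rrp40*, and *rrp46* were lower in every mutant library than in every WT library.

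RNA helicases unwind the precursor rRNA and release snoRNAs from it. The largest increase among them was that of SPAC1093.05 (Hca4 by its description, chromosome I, 4619672 to 4622351, plus strand, 1 exon). The budding yeast ortholog Dbp4 acts in the processome. SPAC1093.05 was counted 82, 84, and 127 times in WT and 637, 515, and 549 times in *htb1-K119R*, or 6.22, 6.03, and 5.24 CPM against 29.9, 28.3, and 28.4 CPM. The mutant libraries were closely grouped, with means of 5.83 ± 0.519 and 28.9 ± 0.940 CPM (SD, n = 3). The log2 fold change was 2.32 (SE 0.131, FDR of 1.22e-06 in edgeR). *sen1* encodes a helicase known foremost for RNA polymerase termination and the removal of RNA-DNA hybrids. It had 6.22, 5.31, and 7.56 CPM in WT and 24.6, 28.4, and 26.3 CPM in the mutant (log2 fold change 2.04, SE 0.154).

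SPBC4F6.07c (Mak5), a large-subunit helicase in budding yeast, had 1.82, 2.44, and 2.64 CPM in WT and 7.57, 8.68, and 6.66 CPM in *htb1-K119R* (log2 fold change 1.70). *rok1*, which in budding yeast releases the snR30 snoRNA, had 0.987, 1.01, and 1.11 CPM in WT and 2.40, 2.14, and 2.74 CPM in the mutant (log2 fold change 1.21). Both genes separated the genotypes, at low levels. *dbp10*, another large-subunit helicase, had 0.835, 1.08, and 1.53 CPM against 3.48, 1.65, and 2.53 CPM. Its groups did not overlap, but *htb1-K119R* replicate 2 lay close to WT replicate 3. Its log2 fold change was 1.11 (SE 0.351, FDR of 0.0304 in edgeR), and it passed in only 2 of the 6 fits that left out a library, with values from 0.82 to 1.42.

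The remaining 6 helicases that rose did so by less than 2-fold. They were *dbp2*, SPBC24C6.02 (Spb4), *dbp7*, *ddx27*, *dbp8*, and SPBC25D12.06, with log2 fold changes between 0.68 and 0.88, and they were named after their values were seen. SPBC24C6.02 and *ddx27* passed in only 1 and 2 of the 6 fits that left out a library, and the others in all 6. In *ddx27* the genotypes overlapped (4.71 CPM in WT replicate 3 and 4.67 CPM in *htb1-K119R* replicate 2). *dbp2*, which also acts in mRNA metabolism, was by far the most abundant, with 135.6, 118.7, and 120.6 CPM in WT and 242, 207, and 243 CPM in the mutant (log2 fold change 0.88, SE 0.112). In the opposite direction, SPCC285.03 (Dbp6, a large-subunit helicase in budding yeast) had 24.9, 22.5, and 32.0 CPM in WT and 16.8, 14.4, and 17.0 CPM in *htb1-K119R* (log2 fold change −0.73, FDR of 0.0042 in edgeR). *dbp3* was also lower, at −0.54. The 4 others, *has1*, *rrp3*, *dbp9*, and SPAC1F5.10, had values from −0.43 to 0.04 and did not pass. Under library totals 7 of the 17 helicases were higher and none was lower, and in the 6 fits that left out a library between 8 and 11 were higher and 2 were lower.

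**Figure D3:**
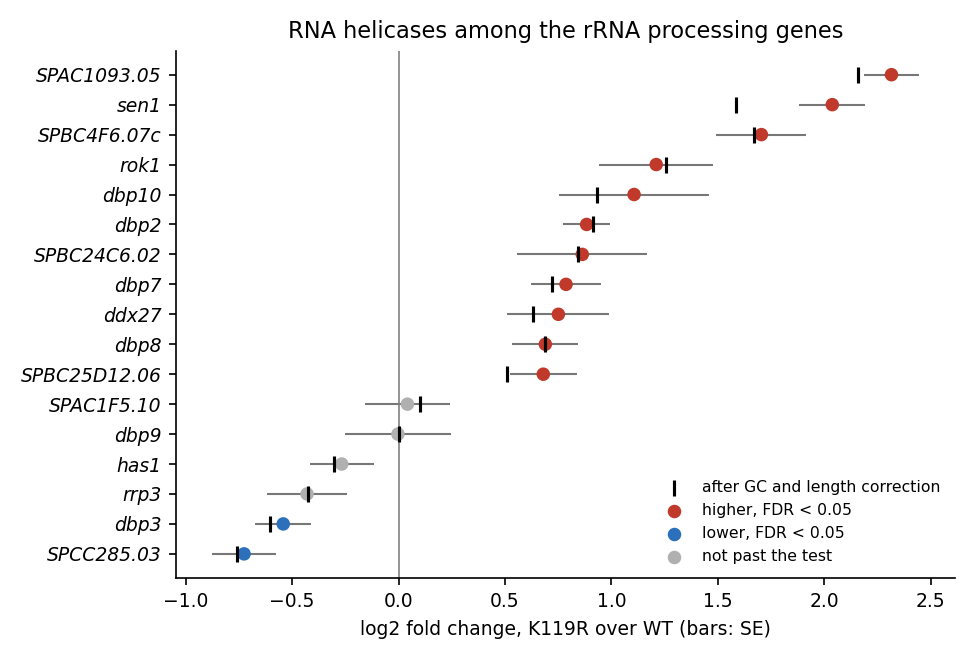
Log2 fold change (*htb1-K119R* over WT) of the 17 RNA helicases with its SE as a bar, colored where the FDR in edgeR was below 0.05. Black ticks mark the value after correction for GC content and gene length. The 11 red genes lie between 0.68 and 2.32, and the correction moved *sen1* from 2.04 to 1.59.

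In the small-subunit processome, 4 genes were upregulated by more than 2-fold. *utp14* (chromosome I, 1531138 to 1534159, minus strand, 2 exons) encodes a U3 snoRNP protein that in budding yeast activates the helicase Dhr1. It was counted 18, 20, and 40 times in WT and 159, 141, and 115 times in the mutant, or 1.37, 1.44, and 1.65 CPM against 7.47, 7.74, and 5.94 CPM. The log2 fold change was 2.22 (SE 0.216, FDR of 4.05e-05 in edgeR). *utp20*, a large repeat protein of the processome, had only 9, 11, and 29 counts in WT and 93, 66, and 70 in the mutant (0.683, 0.790, and 1.198 CPM against 4.37, 3.62, and 3.62 CPM, log2 fold change 2.05, SE 0.279). *utp22*, a subunit of the UTP-C complex, had 3.19, 3.59, and 4.87 CPM against 13.3, 15.2, and 14.2 CPM (log2 fold change 1.84). *nop14*, which nucleates part of the 18S precursor complex, had 3.11, 2.37, and 3.30 CPM against 6.02, 4.56, and 8.37 CPM (log2 fold change 1.09).

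All 4 genes separated the genotypes, and *nop14* varied most among the mutant libraries. Of the processome genes that fell, *efg1* had 12.9, 13.9, and 14.5 CPM in WT and 7.52, 8.46, and 6.92 CPM in the mutant (log2 fold change −0.85, SE 0.144, FDR of 0.00121 in edgeR). *utp16* had 11.7, 13.6, and 12.0 CPM against 8.13, 8.46, and 6.66 CPM (log2 fold change −0.68). In neither gene did the genotypes overlap. The other 2 lower genes were *imp3* and SPAC8F11.04 at −0.40 and −0.39, named after their values were seen. They passed in 2 and 1 of the 6 fits that left out a library, and *imp3* did not pass after the correction for GC content and gene length (−0.15). Of the 46 processome genes, 33 did not pass, among them *pwp2* at −0.04 and *utp13* at 0.03, which scaffold the early processome. The processome genes ranged from −0.85 to 2.22.

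Other factors passed the test with changes below 2-fold, and the 3 examples were named after their values were seen. *brx1*, a large-subunit factor in budding yeast, had 46.99, 44.5, and 43.2 CPM in WT and 73.5, 68.3, and 83.7 CPM in the mutant (log2 fold change 0.74, FDR of 0.000457 in edgeR). *enp1*, a component of pre-40S particles, had 13.7, 14.6, and 18.4 CPM against 29.5, 23.99, and 27.3 CPM (log2 fold change 0.78, SE 0.145). *fap7*, an ATPase of late 18S maturation, had 15.03, 17.7, and 14.7 CPM against 10.2, 11.3, and 10.4 CPM (log2 fold change −0.57, SE 0.136). The genotypes did not overlap in these genes, and the WT libraries of *brx1* were closely grouped. With the correction for GC content and gene length *fap7* was at −0.33 and still passed.

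In the class of pre-60S assembly (16 genes), SPCC737.08 was the only gene that was higher. It encodes midasin (Mdn1 or Rea1 in budding yeast), a very large ATPase that strips assembly factors from pre-60S particles. SPCC737.08 (chromosome III, 1900482 to 1914833, plus strand, 1 exon of 14352 bases) had 3.42, 3.09, and 2.64 CPM in WT and 11.9, 11.3, and 12.4 CPM in *htb1-K119R*. The log2 fold change was 1.98 (SE 0.171, FDR of 1.85e-05 in edgeR). SPAC890.04c (Ytm1), which in budding yeast is a substrate of midasin, moved in the opposite direction, with 28.01, 27.9, and 31.8 CPM in WT and 19.9, 14.4, and 20.6 CPM in the mutant (log2 fold change −0.68, FDR of 0.00541 in edgeR). In neither gene did the genotypes overlap. *rrp15* was also lower, at −0.66. *mrt4*, the most abundant pre-60S member, had 262, 229, and 178 CPM against 226, 235, and 250 CPM. It did not pass (log2 fold change 0.09), and its value was −0.05 without WT replicate 3.

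*noc3*, a pre-60S export factor in budding yeast, was the only member removed for low counts and had the lowest FPKM of all members (mean 0.154). It was counted 6, 5, and 13 times in WT and 3, 10, and 7 times in the mutant, so a difference was not detectable at this depth.

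In RNase MRP and RNase P, which cut precursor rRNA and tRNA, *pop100* and *new2* moved in opposite directions. *pop100* had 3.42, 3.16, and 2.56 CPM in WT and 9.78, 12.0, and 12.2 CPM in the mutant (log2 fold change 1.91, SE 0.187, FDR of 4.17e-05 in edgeR). *new2*, described as specific to the genus and only 288 bases long, had 4.18, 5.31, and 3.92 CPM against 3.38, 2.80, and 1.96 CPM (log2 fold change −0.71, SE 0.249, FDR of 0.0458 in edgeR), and passed in 2 of the 6 fits that left out a library.

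The snoRNP proteins, which include the most highly expressed members, mostly did not pass the test in the fit of all 6 libraries. Without WT replicate 3, however, *nop58* (0.34) and *cbf5* (0.34) were higher. In the same fit *snu13* (−0.28), *nhp2* (−0.26), *nop10* (−0.56), and *gar1* (−0.51) were lower, and 26.4% of all genes tested were higher and 27.6% lower. Per length, *snu13* (1515 FPKM), *fib1* (716 FPKM), *gar2* (404 FPKM), *gar1* (286 FPKM), and *mrt4* (220 FPKM) had the highest mean FPKM, against a median of 5.92 over all members. *fib1* encodes fibrillarin, the methyltransferase of box C/D snoRNPs, and had 1120, 1037, and 739 CPM in WT and 846, 966, and 962 CPM in *htb1-K119R*. *snu13*, the box C/D protein that binds the snoRNA, had 926, 892, and 582 CPM against 680, 861, and 703 CPM. In both genes WT replicate 3 was the lowest of the 6 libraries and the groups overlapped. The log2 fold changes were −0.06 for *fib1* (SE 0.177) and −0.10 for *snu13* (SE 0.192), and both signs reversed with library totals (0.14 and 0.10).

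The 2 core proteins *nop56* and *nop58* had log2 fold changes of 0.08 (SE 0.157) and 0.14 (SE 0.188). In the box H/ACA class, the pseudouridine synthase *cbf5* was at 0.25, *nhp2* at −0.14 (0.05 with library totals), and *nop10* at −0.34, and none passed in the fit of all libraries. *gar1* had 368, 346, and 285 CPM in WT and 248, 249, and 256 CPM in the mutant, without overlap. Its log2 fold change was −0.41 (SE 0.123, FDR of 0.0247 in edgeR), and it passed in 1 of the 6 fits that left out a library. *gar2*, the nucleolin-like protein of the nucleolus, was the only one of the 5 members of highest FPKM that was higher, with 723, 655, and 536 CPM against 969, 984, and 1018 CPM (log2 fold change 0.64, SE 0.151, FDR of 0.00816 in edgeR).

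The nucleases outside the exosome included *rex3*, whose budding yeast ortholog trims the MRP RNA, with 3.11, 4.31, and 4.79 CPM in WT and 6.11, 7.74, and 7.44 CPM in the mutant (log2 fold change 0.78, FDR of 0.0135 in edgeR). *dhp1*, the nuclear 5′ to 3′ exoribonuclease, was at 0.58 and SPBC9B6.11c at 0.45. Both were named after their values were seen, and neither passed after the correction for GC content and gene length (0.15 and 0.18). The methyltransferase *spb1*, which modifies the large-subunit rRNA, had 3.49, 4.74, and 4.58 CPM against 6.72, 6.15, and 5.99 CPM (log2 fold change 0.55, FDR of 0.0393 in edgeR), and 0.39 with no call after that correction.

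The class of mixed function held 4 upregulated genes. *urb2*, needed for large-subunit biogenesis in budding yeast, had 0.987, 1.58, and 1.11 CPM in WT and 4.32, 4.50, and 4.03 CPM in the mutant (log2 fold change 1.81, SE 0.249). *rrp16* had 1.97, 2.15, and 1.82 CPM against 3.43, 8.35, and 6.51 CPM (log2 fold change 1.62, SE 0.319), with a wide spread in the mutant. SPAC890.05, a G-patch protein of the PINX1 family, had 5.997, 3.80, and 4.71 CPM against 10.999, 10.2, and 11.6 CPM (log2 fold change 1.18). *nop12*, an RNA-binding protein of the large subunit, had 2.66, 2.51, and 3.55 CPM against 7.24, 5.71, and 6.82 CPM (log2 fold change 1.16). The groups did not overlap in any of these. *rrb1*, the chaperone of a ribosomal protein in budding yeast, had 96.3, 78.5, and 66.7 CPM in WT and 49.8, 49.1, and 47.5 CPM in the mutant (log2 fold change −0.72, FDR of 0.002 in edgeR), likewise without overlap. Of the distinct windows of 50 bases in *rrb1*, 8.44% occur more than once in the genome, so its reads may be shared. A repeat within *rrb1* itself would be counted too, and the other 160 members held no such window.

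**Figure D4:**
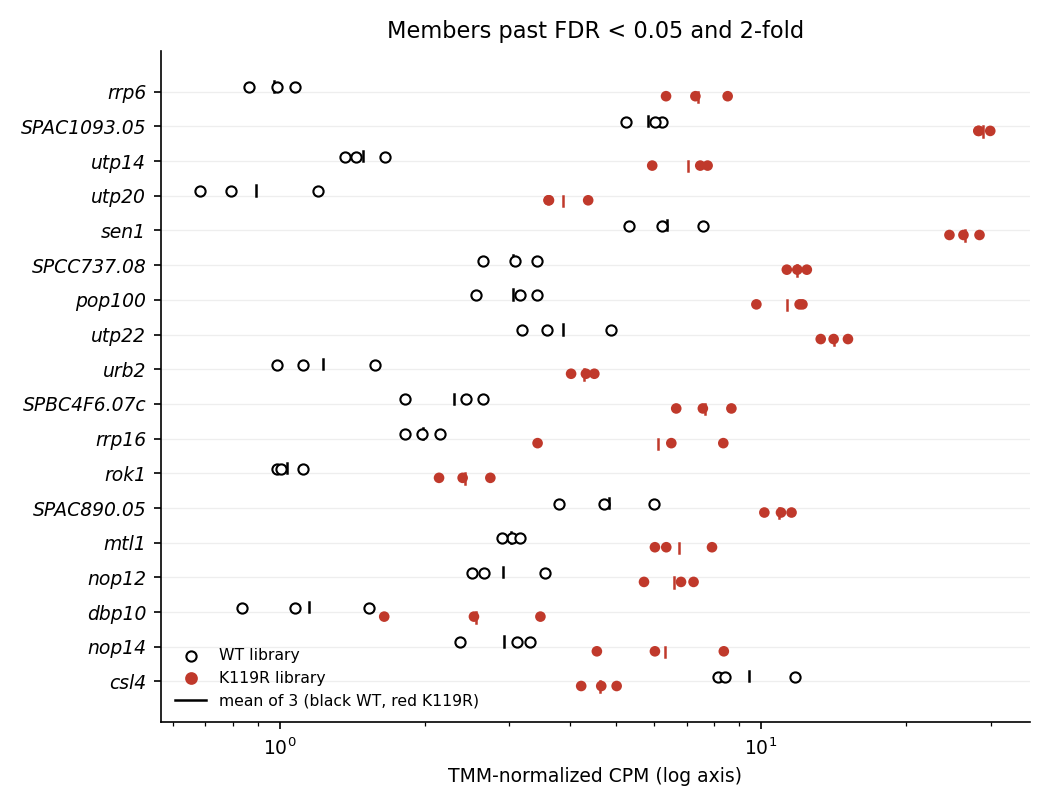
TMM-normalized CPM (log axis) in each library of the 18 upregulated or downregulated members, ordered by log2 fold change. In each gene the 3 WT libraries (open circles) and the 3 *htb1-K119R* libraries (red) do not overlap, and the WT values of the 17 upregulated genes are at most 7.56 CPM.

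The upregulated members were expressed at low levels. Their mean FPKM ranged from 0.331 to 6.59 with a median of 1.80, against 5.92 over all members and 11.6 over all genes. In 6 of the 17, at least 1 WT library held fewer than 20 counts. Of 27 members below 4 CPM, 4 were upregulated, and of 74 between 4 and 16 CPM, 11 were, whereas 2 of 59 at 16 CPM or more were. Over all genes tested, 63 of 630, 92 of 1464, and 79 of 2875 in these ranges were upregulated. Of the lower members, 1 was below 4 CPM and 10 were in each of the other ranges (3.70%, 13.5%, and 16.9% of the members there, against 12.2%, 17.5%, and 21.7% of all genes tested). Of the 17, 15 passed both thresholds in all 6 fits that left out a library, and the exceptions were *dbp10* and *nop14*.

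By chromosome, 12 of 69 members on chromosome I were upregulated, against 4 of 69 on chromosome II and 1 of 22 on chromosome III. Over all genes tested the shares were 4.92%, 3.91%, and 4.84%. By structure, 7 of 77 members with 1 exon and 10 of 83 with more were upregulated, against 5.42% and 3.61% of all genes tested, and the median log2 fold changes of the members were 0.04 and 0.01. These counts were chosen after the data were seen and describe the members, and differences between chromosomes or structures were not tested.

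The change also followed the length of the gene. Across the 160 members, the Spearman correlation of log2 fold change with exon length was 0.51, and across 4913 genes tested with a length it was 0.35. The genes share their libraries and are not independent replicates, so this is a description. The 22 members of 3000 bases or more had a median log2 fold change of 0.59, with 12 higher and none lower, and the 775 genes of that length had a median of 0.33, with 37.7% higher and 6.06% lower. The 45 members below 1200 bases had a median of −0.24, with 2 higher and 10 lower, and the 1339 genes of that length also had a median of −0.24, with 8.89% higher and 30.5% lower. The share of lower members among them (22.2%) was thus no larger than that of all genes of this length. Between 1200 and 2000 bases the median of the members was −0.06, and between 2000 and 3000 bases it was 0.08.

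Long and short genes differed between the genotypes in every library. The median log2 CPM of the members of 3000 bases or more minus that of the members below 1200 bases was −0.73, −0.77, and −0.56 in WT and 0.24, −0.06, and 0.07 in the mutant libraries. Over all genes tested the same difference was −1.15, −1.16, and −0.72 in WT and −0.27, −0.49, and −0.32 in the mutant. WT replicate 3 lay nearest to the mutant libraries in both. The genotypes did not overlap in either. The upregulated members were mostly long (13 of 17 had 2000 bases or more), and the barrel genes of the exosome were short (median 1338 bases). From the shortest to the longest of the length ranges above, 0%, 7.41%, 17.9%, and 27.3% of the members were upregulated. Over all genes tested these shares were 2.76%, 3.49%, 4.04%, and 10.6%, so they also rose with length.

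With GC content and gene length corrected by offsets, most of the 2-fold increases were still called. The members then numbered 36 higher and 20 lower (19.9% of all genes tested in each direction), with 16 upregulated (4.19%) and none downregulated (3.2%), and 32 of the 37 higher and 16 of the 21 lower calls were shared. All 17 upregulated members still passed the test, and 14 of them stayed above 2-fold. The exceptions were *mtl1* (0.98), *dbp10* (0.93), and *nop14* (0.92). The longest member, SPCC737.08, moved from 1.98 to 1.07, while *rrp6* stayed at 2.81. *csl4* was at −0.81 and no longer past 2-fold, 4 of the 9 barrel genes were lower instead of 5, with *rrp43* no longer past the test, and the helicase counts of 11 higher and 2 lower did not change. After the correction the correlation with length was 0.17 across the members and 0.00 across all genes tested.

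**Figure D5:**
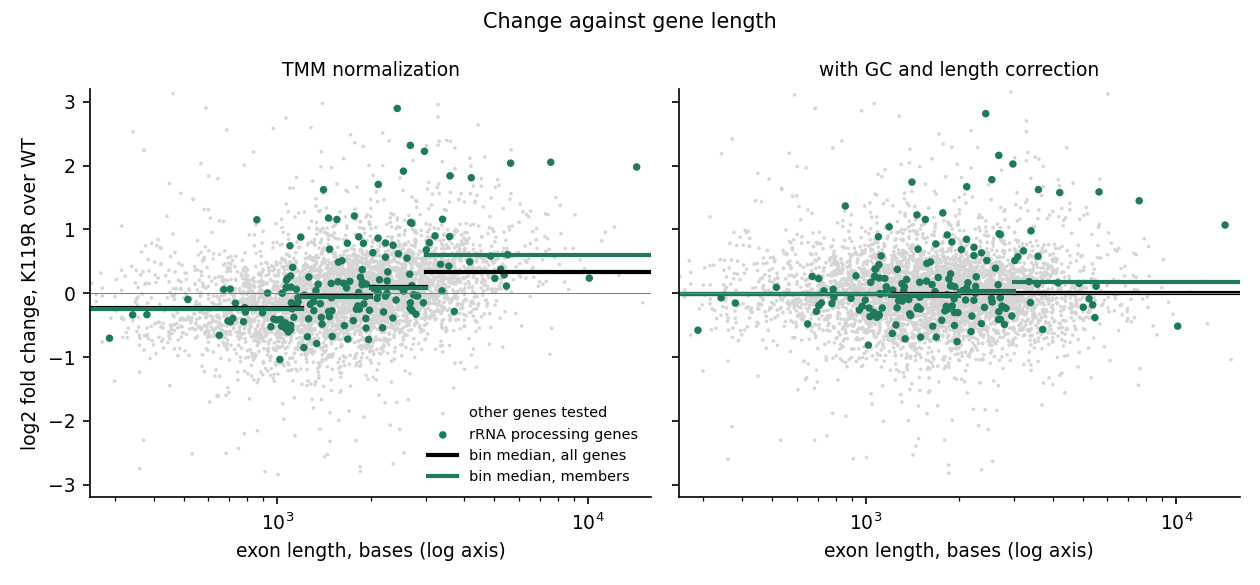
Log2 fold change (*htb1-K119R* over WT) against exon length (log axis) for rRNA processing genes (green) and other genes tested (grey), with TMM normalization (left) and with the correction for GC content and gene length (right). Thick lines are medians within 4 length ranges, which rise from −0.24 to 0.59 for the members on the left and lie between −0.04 and 0.17 on the right, and 25 non-member genes lie outside the axes on the left.

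Genes on opposite strands limit some of these values, since the sources used here do not state whether the counting used strand. In ASM294v3, 65 of the 161 members overlap a protein-coding gene on the other strand, among them 7 of the 17 upregulated members. *dbp10* lies wholly within the overlap with *atp25*, whose log2 fold change was 0.01 (10.9 CPM in WT and 11.03 in the mutant). *urb2* shares 17.6% of its length with *vps45*, which was at 0.04. For *rrp16* and SPCC737.08 the overlap covers 4.92% and 0.543% of the gene, and the partners *sap145* and *hmt1* were themselves higher, at 0.94 and 0.83. The overlaps of SPAC1093.05, *utp14*, and *mtl1* cover at most 6.94% of the gene, with partners at 0.28, −0.40, and −0.02 that did not pass. *rrp6* and *csl4* overlap no protein-coding gene on the other strand. Each does overlap another annotated gene there, as 146 of the 161 members overlap an annotated gene of any kind. Whether reads of such genes entered the counts was not tested. Among the 96 members tested without an overlap with a protein-coding gene, 21 were higher (21.9%, against 18.6% of all genes tested) and 12 were lower (12.5%, against 19.3%). Of these 96, 10 were upregulated (10.4%, against 4.71%) and 1 was downregulated (1.04%, against 3.64%).

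Other genes of ribosome production were counted in the same way. Of 131 cytoplasmic ribosomal protein genes, none was higher and 65 were lower (49.6%, against 19.3% of all genes tested, median log2 fold change −0.55). Under library totals 92 were lower (8.11% of all genes tested were, median −0.35). With the correction for GC content and gene length, 2 were higher and 46 lower (median −0.16, with 19.9% of all genes tested in each direction). Without WT replicate 3, 130 were lower (27.6% of all genes tested were). These genes are short, with a median exon length of 620 bases. Of 23 genes of RNA polymerase I and its factors tested, 3 were higher and 6 were lower (median −0.23). In this list *rpa43*, a stalk subunit of the polymerase, fell from 129, 126, and 78.7 CPM to 34.5, 36.2, and 31.4 CPM (log2 fold change −1.70, FDR of 5.62e-05 in edgeR), whereas *rrn5*, an upstream factor, rose by 1.14 and *nuc1*, the largest subunit, by 0.96, all 3 named after their values were seen. With that correction *rpa43* was at −1.51, *rrn5* at 1.03, and *nuc1* at 0.46. Of 79 other ribosome biogenesis genes tested, 11 were higher and 17 lower (13.9% and 21.5%, median −0.08), and of 74 mitochondrial ribosomal protein genes, 9 were higher and 14 lower (12.2% and 18.9%, median −0.13). The shares of these last 2 lists lay near those of all genes tested (18.6% and 19.3%). Each list was described by its counts alone, and differences between lists were not tested.

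The sequence just upstream of the members was searched for motifs known from ribosome genes of yeasts, on both strands, from 250 bases before to 50 bases after the annotated gene start in ASM294v3 (RefSeq). The start and the build come from a match of gene IDs, as the deposited table names only Ensembl release 45. HomolD (CAGTCACA) and HomolE, the elements of fission yeast ribosomal protein promoters, were each found in 1 of 161 members (0.621%), against 2.68% and 1.25% of 5104 promoters of protein-coding genes. Both lay in the same gene, *mpp1*, whose log2 fold change was −0.08. The PAC core of budding yeast (GATGAG) occurred in 12 members (7.45%, against 8.58% of the promoters), and the RRPE element (AAAATTTT, a palindrome) occurred in 20 (12.4%, against 7.80%). Of the 12 members with the PAC core, 2 were higher and 1 was lower, and of the 20 with RRPE, 3 were higher and 3 were lower. Of all genes tested, 18.6% were higher and 19.3% lower, and nothing about the motifs is read from these counts. The windows of the 6 RRPE genes that passed the test and of *mpp1* are given so that the flanks can be compared. They are written 5′ to 3′ on the strand of the gene, with the motif in capitals.
*utp22* (chrII:3191216-3191245, minus strand, log2 fold change 1.84): gaaattaattcAAAATTTTctaaaaggtag
*dbp2* (chrII:3665396-3665425, minus strand, log2 fold change 0.88): ttatctgactgAAAATTTTtattttgcaat
*gar2* (chrI:1897406-1897435, plus strand, log2 fold change 0.64): tatcatcggtaAAAATTTTtttggctatat
*imp3* (chrI:5219618-5219647, minus strand, log2 fold change −0.40): gcctactaagtAAAATTTTtggctaatcgc
*rli1* (chrII:4164455-4164484, plus strand, log2 fold change −0.29): attggcaataaAAAATTTTcgtaatgacga
*csl4* (chrIII:2279085-2279114, plus strand, log2 fold change −1.04): attatcaagaaAAAATTTTtgttgaaagaa
*mpp1*, HomolD (chrI:2135844-2135873, plus strand): tatgtccaaaaCAGTCACAaaccctaccct
*mpp1*, HomolE on the other strand (chrI:2135854-2135883, plus strand): acagtcacaaACCCTACCCTtcttatataa
The first base of the RRPE letters lay 116 bases before the gene start in *utp22*, 56 in *dbp2*, 45 in *gar2*, 44 in *imp3*, 162 in *rli1*, and 172 in *csl4*. A match of letters is a description and was not tested as a site.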

How the data were processed

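RNA-seq libraries of WT (3) and *htb1-K119R* (3) were analyzed. The authors enriched mRNA with oligo(dT), removed rRNA reads, mapped the rest with HISAT2 to the *S. pombe* genome of Ensembl release 45, and deposited raw counts per gene and library. The authors also deposited FPKM values made with StringTie. Versions, the counting tool, and its use of strand are not given in the sources used here, and processing notes also name fastp, Bowtie2, RSEM, and DESeq2. The deposited fold changes, p-values, and FDR of the authors' comparison, and 12 further per-sample columns, were not used. Library totals lay between 15987167 and 20701391 counts, and a count of 3 corresponded to 0.124 to 0.228 CPM.

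The count model was that of edgeR 4.0.16 under R 4.3.3 (TMM, filterByExpr, quasi-likelihood test, genotype as the only factor), with Benjamini-Hochberg adjustment over 4969 genes. SEs are those implied by the F statistic, and positive log2 fold changes mean higher in *htb1-K119R*. *P*-values measure the spread between 3 libraries per genotype, each from 1 strain. On simulated data of these libraries (4966 genes), 39 and 41 of 50 genes changed by 0.7 and −0.7 (log2) and all 50 changed by 1.5 or −1.5 were recovered, with 6 false calls. The changed genes were drawn only from those of higher mean count, with dispersions from the fitted trend. These values thus do not cover genes of low count, such as *rrp6* or *utp20*. Positions, exon lengths (untranslated parts included where annotated), and GC content come from ASM294v3 by gene ID (5109 of 5184 matched, 98.6%, with all 161 members). GC content and length were corrected by lowess offsets (span 0.3). Roles came from deposited descriptions.

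Genes named individually are the members past both thresholds, the 8 largest increases and decreases among those past the test, the snoRNP core, *dis3*, *rrp6*, and *mtr4*, the 5 highest and the lowest FPKM, members removed by the filter, the largest change in each role class, and *htb1*. Any other member named was named after its values were seen. The members, lists, and rules were chosen with earlier results of these data known. Alternatives were RLE, library totals, DESeq2 1.42.0, no filter, a filter of 10 counts per library, a block for the replicate number, the GC and length correction with and without it, limma 3.58.1 on log2(FPKM + 1), each library left out, and other member rules. Totals that leave out the 100 most counted genes, and members overlapping no protein-coding gene on the other strand, were chosen after seeing the data. Tables were handled in Python 3.11.15 (pandas 2.3.3, numpy 2.4.6, scipy 1.17.1).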

Additional observations from a re-analysis of the deposited data

How the results depend on the processing

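With library totals, limma on log2(FPKM + 1), and totals that leave out the 100 most counted genes (chosen after seeing the data), 1, 1, and 5 members were lower. Over the 4969 genes tested, 403, 450, and 595 were lower in these fits, against 958 in the main fit. No member was downregulated (0 in each), and the median of the members was 0.17, 0.17, and 0.11. The FPKM fit called 33 higher members (934 over all genes tested) and 10 upregulated members, on a scale that understates changes of low genes. Under both GC and length corrections 0 members were downregulated. Leaving out each library gave 26 to 48 higher, 10 to 32 lower, 15 to 22 upregulated, and 0 to 1 downregulated members, with medians from −0.027 to 0.11, the last without WT replicate 3. Over all genes tested, the same fits gave 577 to 1319 higher and 570 to 1375 lower, against 924 and 958 in all libraries. Among the 15 members tested that overlap no annotated gene on the other strand, 2 were higher (13.3%) and 4 lower (26.7%). None of the 15 was upregulated or downregulated (0 and 0, median −0.15). Among the 96 that overlap no protein-coding gene, these counts were 21 (21.9%), 12 (12.5%), 10, and 1 (fewer genes by construction). Of all genes tested, 18.6% were higher and 19.3% lower. The counts stayed within 1.5 times under RLE, DESeq2, both count filters, and the annotation without exclusions (37 higher and 23 lower of 174).

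Same-numbered libraries did not all deviate together (r = −0.23, 0.36, and 0.30), and libraries of different numbers had values from −0.51 to 0.37. These are deviations from the means of 3 libraries, so they cannot show whether the numbers pair the samples. With the replicate number as a block, 39 members were higher, 24 lower, 18 upregulated, and 1 downregulated (median 0.05), and with the block and the GC and length correction 36, 18, 15, and 0. Over all genes tested, 1026 were higher and 1002 lower with the block alone, against 924 and 958 without it.

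Of 39 named genes, 34 kept their sign in all alternatives run. The others were genes near 0 with no call in the main fit, of which *snu13* and *nhp2* passed without WT replicate 3. Each value is given in the order library totals, GC and length correction, the same with the block, limma, and totals without the 100 genes. *fib1* was at 0.14, 0.15, 0.15, 0.14, and 0.068, *snu13* at 0.10, 0.092, 0.092, 0.10, and 0.035, and *nhp2*, which kept its sign in the last, at 0.054, 0.088, 0.098, and 0.053. With each library left out, *fib1* ranged from −0.22 to 0.057, *snu13* from −0.28 to 0.020, *nop56* from −0.016 to 0.25, and *mrt4* from −0.050 to 0.22. Of 623 comparisons with an alternative, 537 kept sign and call, 60 lost the call, 8 gained it, and 18 changed sign, and the causes were not tested. For *noc3*, counted 3 to 13 times per library, a difference was not detectable at this depth.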
